A study of Mus musculus with 8 samples.

Results

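Hba-a1, Hba-a2 and Hbb-bs, the genes of adult alpha- and beta-globin, and Alas2, the erythroid gene of heme synthesis, were followed in RNA of colonic intestinal epithelial cells (IECs) of mice with and without epithelial Efhd2. All 4 genes were taken by gene symbol from the table of day 7, which lists 128 genes, and Alas2 was also taken from the table of day 0, which lists 309 genes and none of the other 3 members. IECs came from Efhd2f/f Vil1cre/+ mice, in which Cre expressed from the villin promoter removes the second exon of Efhd2 in the intestinal epithelium, and from Efhd2f/f mice, which carry the same floxed alleles without Cre. The methods name adult mice of both sexes for the animal experiments, and the sources used here do not give the sex behind each library. Mice of both genotypes were taken on day 0 without dextran sodium sulfate (DSS) or on day 7. Those of day 7 had DSS in the drinking water followed by plain water. This gave 4 groups of 2 libraries. The epithelial fraction was shaken off the rinsed colon with a chelating buffer and strained, with no sort by surface marker named in the methods, and the sources used here do not say that each library came from 1 mouse, so the spread between libraries may be technical. As deposited, the 4 genes were higher without epithelial Efhd2 on each day they were listed. On day 7 Hba-a1, Hbb-bs and Alas2 turned slightly when the libraries were rescaled to equal sums over the listed genes. By its construction that scaling removes the common rise of the listed genes. The 4 genes were listed because of the difference as deposited, since the authors listed genes past their thresholds of fold change and adjusted p-value for this same contrast. The values below are therefore a description and carry no test.

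Hemoglobin is built from paired alpha and beta chains, each of which holds a heme group with an iron atom that binds oxygen. Alas2 encodes the erythroid form of 5-aminolevulinate synthase, which joins glycine and succinyl-CoA in mitochondria as the first and rate-limiting step of heme synthesis, and its own translation responds to iron. These genes are transcribed in maturing erythroid cells under GATA1 and KLF1, and young red cells that have lost their nucleus still carry the messages in blood. In the colon, red cells lie in the vessels of the lamina propria beneath the epithelium, and DSS colitis is known for blood in the stool. In bulk RNA, a change in the number of cells of a type cannot be told apart from a change in RNA per cell.

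Efhd2 itself was listed on day 0, at 556 and 713 normalized counts in the Efhd2f/f Vil1cre/+ libraries against 2663 and 2686 in the Efhd2f/f libraries, and was not listed on day 7, so the day 7 genotype labels were not checked this way. Of 18 markers of colonic epithelium, 0 were listed on day 7 and 2 on day 0, so the labelled cell type could not be examined from the genes listed on day 7. A normalized count is the authors' adjusted read count of a gene in a library, and each day was adjusted on its own. Low values were not whole multiples of 1 step in most libraries, so the adjustment was not division by 1 factor per library, and its effect on single levels and folds is unknown. The total depth of the libraries is unknown. Library 71 differed from library 65 of the same genotype in many genes listed on day 7, in both directions. The ratio of library 71 to library 65 had quartiles of 0.796 and 2.01 over 121 listed genes. Among the genes higher in library 71 were neutrophil genes, which are given beside the results they touch.

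On day 7, Hba-a1 was the member with the highest level, at 2714 and 2643 normalized counts in Efhd2f/f Vil1cre/+ libraries 65 and 71 and at 387 and 935 in Efhd2f/f libraries 67 and 68. Hba-a1 was thus nearly even between the Efhd2f/f Vil1cre/+ libraries and unequal between the controls, and the genotypes did not overlap. Its means were 2679 ± 49.8 and 661 ± 388 (SD, n = 2 libraries each), a 4.05-fold difference and a log2 fold change of 2.15 ± 0.64 (SE). Log2 fold changes, here and below, are Efhd2f/f Vil1cre/+ minus Efhd2f/f on log2(normalized count + 1), and this scale understates the change of genes with low values.

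The other alpha-globin gene, Hba-a2, was at 426 and 380 normalized counts in Efhd2f/f Vil1cre/+ libraries 65 and 71 and at 36.1 and 96.2 in Efhd2f/f libraries 67 and 68. It had the largest fold of the 4 members, with means of 403 ± 32.7 and 66.2 ± 42.5 (SD, n = 2 each), a 6.09-fold difference and a log2 fold change of 2.75 ± 0.70 (SE). Its SE was also the largest of the 4. Hbb-bs, the beta-globin gene, was at 746 and 669 normalized counts against 105 and 233. Its means were 707 ± 54.5 and 169 ± 90.1, a 4.19-fold difference and a log2 fold change of 2.17 ± 0.57 (SE). As for the alpha-globin genes, library 67 held the lowest value and neither Efhd2f/f library reached an Efhd2f/f Vil1cre/+ library.

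Alas2 was at 253 and 300 normalized counts in Efhd2f/f Vil1cre/+ libraries 65 and 71 and at 33.5 and 79.6 in Efhd2f/f libraries 67 and 68. Its means were 277 ± 32.9 and 56.6 ± 32.6 (SD, n = 2 each), a 4.89-fold difference and a log2 fold change of 2.39 ± 0.62 (SE). Alas2 was the 1 member with its higher Efhd2f/f Vil1cre/+ value in library 71. The order of the control libraries was the same as for the globin genes.

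In the values as deposited, both Efhd2f/f Vil1cre/+ libraries of all 4 members lay above both Efhd2f/f libraries, as they did for 90.6% of the 128 genes listed on day 7, while both lay below for 8.59%, and nothing is read from this count because the list was selected on the same contrast. The median log2 fold change of the members was 2.28, beside 2.53 over all listed genes, of which 117 were higher and 11 lower. Without library 67, the lowest control, the log2 fold changes were 1.52 for Hba-a1, 2.05 for Hba-a2, 1.60 for Hbb-bs and 1.78 for Alas2. Without library 68 they were 2.79, 3.44, 2.74 and 3.0 in the same order. The direction depended on the scaling: when each library was rescaled so that its listed genes added up to 1 common total (equal sums), which shifted the median log2 fold change of all of them by -2.41, Hba-a1 was at -0.27, Hbb-bs at -0.25, Alas2 at -0.01 and Hba-a2 at 0.35. That scaling takes the rise of the listed genes as its base, so relative to the listed genes as a whole the members moved little.

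**Figure D1:**
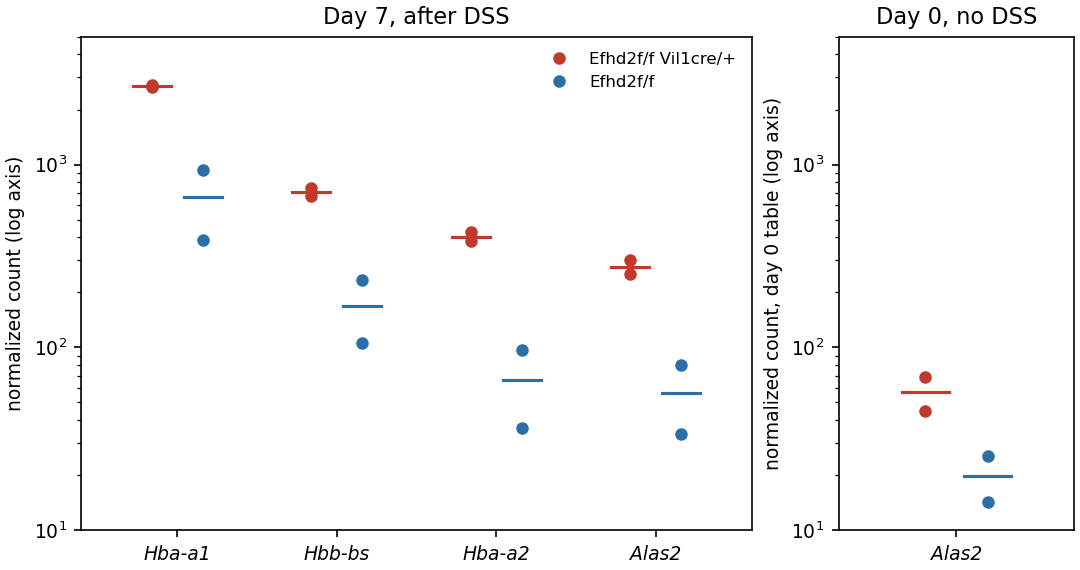
Normalized count (log axis) of each globin gene and Alas2 in every library of day 7 (left) and of Alas2 on day 0 (right), with points for libraries and lines for the mean of 2 libraries; the 2 days were scaled separately. On day 7 each gene is tight in Efhd2f/f Vil1cre/+ (Hba-a1 at 2714 and 2643) and spread in Efhd2f/f (387 and 935). Under equal sums over the listed genes, which remove their common rise, the difference turns slightly for Hba-a1, Hbb-bs and Alas2.

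Levels of different genes were compared per kilobase of the gene length given in the table (812 bases for Hba-a1, 768 for Hbb-bs, 667 for Hba-a2 and 2403 for Alas2). On this scale Hba-a1 was at 3299 ± 61.4 in Efhd2f/f Vil1cre/+ and 814 ± 478 in Efhd2f/f IECs, Hbb-bs at 921 ± 70.9 and 220 ± 117, Hba-a2 at 604 ± 49.0 and 99.2 ± 63.8, and Alas2 at 115 ± 13.7 and 23.5 ± 13.6 normalized counts per kilobase (SD, n = 2 each). The order from Hba-a1 through Hbb-bs and Hba-a2 to Alas2 was the same in each of the 4 libraries. Between neighbours in this order, the libraries of a genotype did not overlap, except Hbb-bs (137 and 303) and Hba-a2 (54.1 and 144) in Efhd2f/f IECs.

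The proportions among the members varied less than their levels. The summed level of the 3 globin genes was 3886 and 3692 normalized counts in Efhd2f/f Vil1cre/+ libraries 65 and 71 and 528 and 1264 in Efhd2f/f libraries 67 and 68. Over the same libraries, the ratio of both alpha-globin genes to Hbb-bs in normalized counts was 4.21, 4.52, 4.02 and 4.43. This ratio of counts therefore spanned 4.02 to 4.52 while the sum ranged from 528 to 3886. It leaves out Hbb-bt, the other adult beta-globin gene, which was not listed, and does not measure protein chains. The globins were 15.3, 12.3, 15.8 and 15.9 times Alas2, with library 71 the one that stood lower. As a share of the summed count of all listed genes the 3 globins made up 0.944%, 0.601%, 0.734% and 1.04%, and on that measure the genotypes overlapped.

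The alpha-globin genes did not keep 1 ratio. Hba-a1 was 6.37 and 6.96 times Hba-a2 in the Efhd2f/f Vil1cre/+ libraries 65 and 71 and 10.7 and 9.72 times in the Efhd2f/f libraries 67 and 68, a ratio that was lower in both Efhd2f/f Vil1cre/+ libraries. The ratio of Hba-a1 to Hbb-bs showed no such split, at 3.64 and 3.95 against 3.68 and 4.02. Hba-a1 (ENSMUSG00000069919) and Hba-a2 (ENSMUSG00000069917) lie on the plus strand of chromosome 11 of GRCm38, at chr11:32283511-32284465 and chr11:32296489-32297298, with Hbq1b between them. The main transcript of each in GENCODE mouse release 21 has 3 exons and a coding region of 429 bases. The coding regions differ at 1 base. The stretches around it are shown because this base and the transcript ends are all that separates reads of the 2 main transcripts. The deposited gene lengths (812 bases for Hba-a1 and 667 for Hba-a2) are longer, and bases outside the main transcripts were not compared. The capital marks the differing base, at position 381 of the coding region counted from its first base as 1.
Hba-a1: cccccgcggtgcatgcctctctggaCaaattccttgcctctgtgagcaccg
Hba-a2: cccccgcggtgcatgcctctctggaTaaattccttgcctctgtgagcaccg

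Of all windows of 50 bases in the main transcript of Hba-a1 (699 bases), 67.5% also occur in Hba-a2, and of those in that of Hba-a2 (554 bases) 86.9% occur in Hba-a1. At 100 bases the shares were 56.5% and 74.5%. Of the 211 windows of 50 bases found in Hba-a1 alone, 161 start in its first 161 bases, an upstream end that the GENCODE transcript has and the RefSeq start site leaves out, and 50 cover the differing base. Hba-a2 has 66 such windows, 50 over the differing base and 16 at its 3' end. How the authors' counting placed reads that fit both genes is not given in the sources used here, so the split between Hba-a1 and Hba-a2 is uncertain, and the part of shared reads in their changing ratio was not tested.

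Hbb-bs (ENSMUSG00000052305) lies on the minus strand of chromosome 7 at chr7:103826534-103828096 and has 3 exons in its main transcript. Its neighbour Hbb-bt, the other adult beta-globin gene of this haplotype, at chr7:103812524-103813996, was not listed on either day. The main transcripts of Hbb-bs and Hbb-bt are identical at 92.7% of their aligned bases, and 65.8% of the windows of 50 bases in Hbb-bs also occur in Hbb-bt. The level of Hbb-bs is uncertain for the same reason as that of the alpha-globin genes.

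Alas2 (ENSMUSG00000025270) lies on the plus strand of the X chromosome at chrX:150547375-150570638 and has 11 exons in its main transcript. Most of its sequence is its own: 13.8% of its windows of 50 bases occur in another gene, 13.2% in Apex2. Apex2, which encodes a DNA repair endonuclease, is annotated on the opposite strand and spans Alas2 completely, and it was listed on neither day. Without a statement that strand was used in counting, reads from the shared stretch cannot be told apart.

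The promoters are shown because the members were listed together, and globin promoters are known for the motifs searched here. RefSeq (GRCm38.p6) held a promoter for each of the 4 genes, and the 250 bases before the start site are printed 5' to 3' on the strand of the gene. The sequences come from chr11:32296242-32296491 (plus strand) for Hba-a2, chr7:103827929-103828178 (minus strand) for Hbb-bs and chrX:150547167-150547416 (plus strand) for Alas2. Capitals mark matches, on either strand, to 8 motifs. The GATA motif was searched as AGATAA or as its core GATAA. The CACC box was searched as CCACACCC or in the shorter form CCACCC. The CCAAT box has 1 form, while the TATA box was searched as TATAAA or in the forms CATAAA with 6 letters or CATATAA with 7. GATAA lies within AGATAA, and the core GATAA, the CACC box of 6 letters and the TATA box form of 7 letters were chosen after these sequences had been seen.
Hba-a2: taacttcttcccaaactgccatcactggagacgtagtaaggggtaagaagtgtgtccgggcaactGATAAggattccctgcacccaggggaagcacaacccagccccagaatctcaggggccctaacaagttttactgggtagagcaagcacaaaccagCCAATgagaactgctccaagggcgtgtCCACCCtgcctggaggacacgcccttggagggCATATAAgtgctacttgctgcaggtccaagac
Hbb-bs: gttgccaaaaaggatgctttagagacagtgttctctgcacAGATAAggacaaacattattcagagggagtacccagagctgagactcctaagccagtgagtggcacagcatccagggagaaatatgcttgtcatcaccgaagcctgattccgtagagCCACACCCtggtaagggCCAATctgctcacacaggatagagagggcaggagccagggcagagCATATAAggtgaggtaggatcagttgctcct
Alas2: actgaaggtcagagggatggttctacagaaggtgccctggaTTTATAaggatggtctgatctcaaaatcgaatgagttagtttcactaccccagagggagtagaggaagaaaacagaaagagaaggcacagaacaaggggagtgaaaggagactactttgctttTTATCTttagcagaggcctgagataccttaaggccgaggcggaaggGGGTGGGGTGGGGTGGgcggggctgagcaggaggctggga

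The window of Hba-a1 shares an unbroken run of 247 bases with that of Hba-a2, which is why it is not printed, and it holds the same motifs. The Hba-a2 promoter holds GATAA from position -185 to -181, CCAAT from -91 to -87, CCACCC from -64 to -59 and CATATAA from -32 to -26, counted from the start site. The Hbb-bs promoter holds the same kinds of motif in another order, with AGATAA from -210 to -205, CCACACCC from -93 to -86, CCAAT from -76 to -72 and CATATAA from -31 to -25. Hba-a2 and Hbb-bs are otherwise not alike, with 48.7% identity over aligned bases and no shared run beyond 9 bases.

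The Alas2 promoter had no match to CCAAT or CATATAA. It holds AGATAA on the opposite strand from -86 to -81, 3 overlapping matches to CCACCC on the opposite strand between -40 and -25, and TATAAA on the opposite strand from -209 to -204. In GENCODE the gene starts 42 bases upstream of the RefSeq start site for Alas2, 3 bases for Hba-a2, 161 bases for Hba-a1 and, through a transcript other than the main one, 168 bases for Hbb-bs, so part of each window is transcribed in that annotation. Among the 32851 promoters in the table, 22.6% hold GATAA and 9.99% AGATAA, 28.1% hold CCACCC and 3.20% CCACACCC, 33.8% hold CCAAT, 2.12% hold CATATAA, 12.4% hold TATAAA and 10.8% hold CATAAA in the same 250 bases. A match describes letters in the window only.

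The wider erythroid program was examined in 5 lists of globin genes, heme synthesis genes, erythroid transcription factors and receptor, red cell membrane genes, and red cell enzymes with reticulocyte genes. Of the 86 genes on these lists, the 4 members were listed on day 7 and Alas2 alone on day 0. The other 82 were not listed on either day, among them Hbb-bt, Ahsp, which encodes the chaperone of free alpha-globin, Alas1, which encodes the housekeeping form of the synthase, the transcription factor genes Gata1 and Klf1, and Slc4a1, which encodes the anion exchanger of the red cell membrane. Because the tables hold selected genes, a gene that is not listed has no value here, and no difference or lack of one was measured for it. None of 16 platelet markers and none of 11 endothelial markers was listed on day 7, so these other parts of blood and vessel could not be set beside the globin genes.

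Genes that handle iron and heme were listed beside the globins on day 7. Of 33 on that list, 5 were listed (Hmox1, Hp, Steap4, Lcn2 and Ltf), and all 5 were higher in Efhd2f/f Vil1cre/+ IECs, as were 117 of all 128 listed genes; under equal sums over the listed genes Hmox1 (-0.02) and Hp (-0.13) turned. Hmox1, which encodes heme oxygenase 1, the inducible enzyme that breaks heme down, was at 1143 and 790 normalized counts in Efhd2f/f Vil1cre/+ libraries 65 and 71 and at 117 and 277 in Efhd2f/f libraries 67 and 68, a log2 fold change of 2.39 ± 0.67 (SE). Hmox1 thus had, as the globins did, a lower value in library 71 than in library 65 and its lowest value in library 67. Library 67 was also below library 68 in 99 of the 121 listed genes compared between libraries further on. Of these 121 genes, 79 were higher in library 71 than in library 65. The ratio of library 71 to library 65 was 0.691 for Hmox1, against 0.892 to 0.974 for the globins. Hp, which encodes haptoglobin, the plasma protein that binds free hemoglobin, was at 2282 and 2838 normalized counts against 389 and 695, a log2 fold change of 2.29 ± 0.45 (SE). Steap4, which encodes a metalloreductase, was at 1756 and 1863 against 289 and 217, with the higher control value in library 67, unlike the globin genes.

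The other 2 of these genes encode iron-binding proteins that neutrophils also make, and they followed library 71. Lcn2, the gene of lipocalin 2, which binds bacterial siderophores, was at 2356 normalized counts in library 65 and 7498 in library 71, against 241 and 501. Ltf, the gene of lactoferrin, was at 102 and 1651, against 4.17 and 14.3. Without a set chosen independently of this contrast, no difference between these 5 genes and other listed genes was tested.

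**Figure D2:**
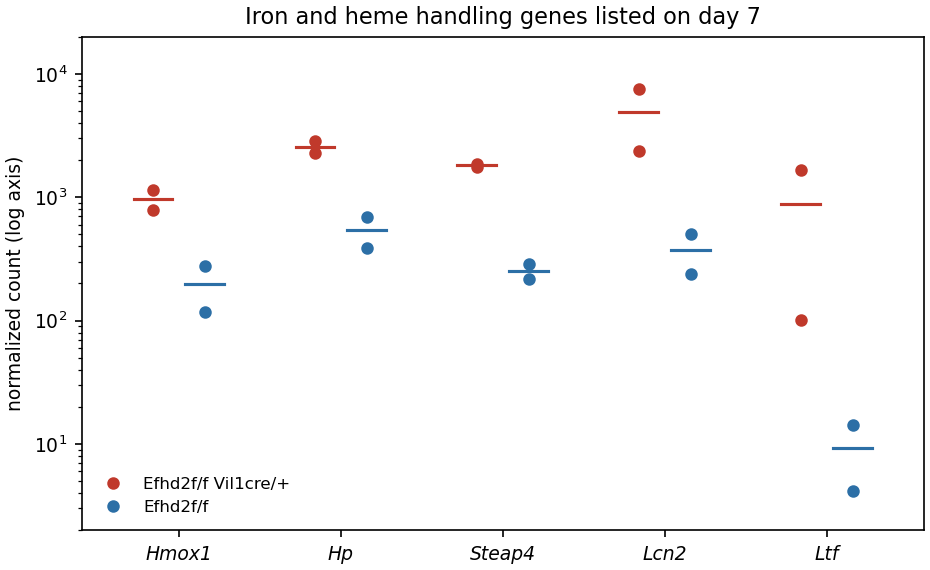
Normalized count (log axis) on day 7 of the 5 iron and heme handling genes that were listed, with points for libraries and lines for the mean of 2 libraries per genotype. Hp and Steap4 have close Efhd2f/f Vil1cre/+ libraries and Hmox1 less close ones (1143 and 790), while Lcn2 (2356 and 7498) and Ltf (102 and 1651) are far apart. Under equal sums over the listed genes, which remove their common rise, the difference turns slightly for Hmox1 and Hp.

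Between the Efhd2f/f Vil1cre/+ libraries the members were close to even, as were some other listed genes. Many listed genes differed between these libraries, in both directions, and the listed neutrophil markers were higher in library 71. The ratio of library 71 to library 65 was 0.974 for Hba-a1, 0.892 for Hba-a2, 0.897 for Hbb-bs and 1.18 for Alas2, beside a median of 1.26 (quartiles 0.796 and 2.01) over the 121 genes of the day 7 table whose mean reached 10 normalized counts and that had no value of 0. Of 14 immature neutrophil markers 5 were listed on day 7 (Ngp, Ltf, Camp, Lcn2 and Chil3), and for them the ratio ran from 3.18 for Lcn2 to 85.1 for Ngp. Their summed level was 3635 normalized counts in library 65 and 22140 in library 71, against 326 and 786 in libraries 67 and 68. Mpo and Elane, which define the earliest granule-forming stage, were not listed. For the 13 of 19 mature neutrophil markers that were listed, the summed level was 21532 and 56250 against 4497 and 7644, and the ratio ran from 1.42 to 6.44 in the 12 of them that were measured in this way. For the 5 genes nearest in profile to the members, the ratio was 1.06 for Ms4a4a, 1.07 for Tarm1, 1.21 for Gm5483, 1.26 for Bst1 and 0.691 for Hmox1. Leaving out library 71 gave log2 fold changes of 2.17 for Hba-a1, 2.83 for Hba-a2, 2.25 for Hbb-bs and 2.27 for Alas2. Library 65, which then stands alone for its genotype, was also above both controls in the summed neutrophil levels, and the part of neutrophil RNA in the members' values was not tested.

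Between the Efhd2f/f libraries the members moved with most listed genes, by more than the median gene. The ratio of library 68 to library 67 was 2.42 for Hba-a1, 2.67 for Hba-a2, 2.21 for Hbb-bs and 2.38 for Alas2. Over the 121 listed genes the median ratio was 1.89 (quartiles 1.28 and 2.43), 99 were higher in library 68 and 49 had a ratio of 2 or more. Of the members, Hba-a2 alone lay above the upper quartile. The part of this common difference between the control libraries in the values of the globin genes was not tested.

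**Figure D3:**
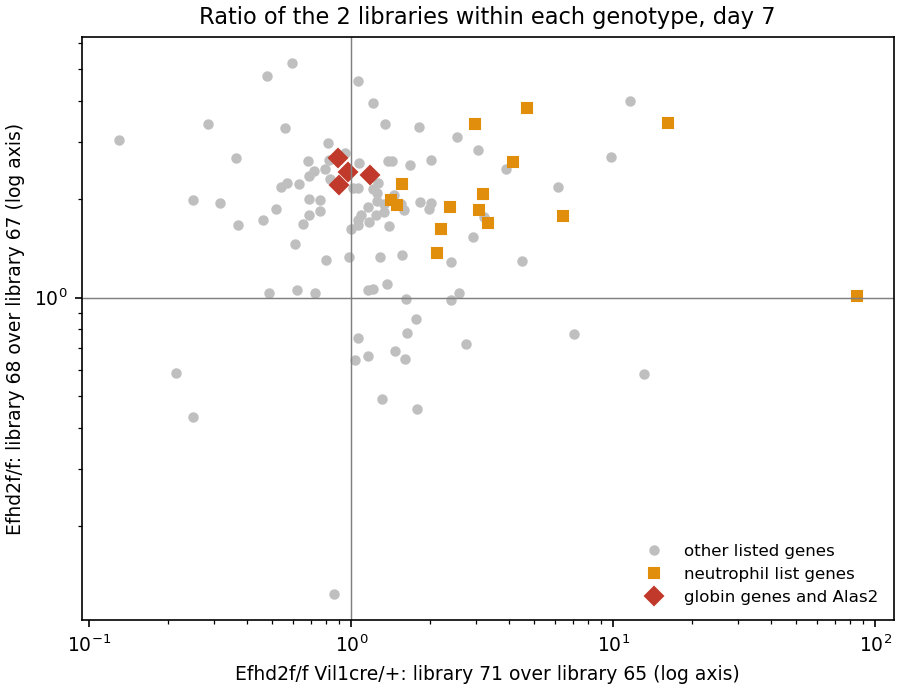
Each point is a gene listed on day 7, placed by the ratio of its 2 Efhd2f/f Vil1cre/+ libraries (library 71 over 65, horizontal, log axis) and of its 2 Efhd2f/f libraries (library 68 over 67, vertical, log axis); 116 genes are drawn and 5 with a ratio under 0.05 are not. The globin genes and Alas2 sit together near 1 on the horizontal axis (0.892 to 1.18) and between 2.21 and 2.67 on the vertical axis, while the 15 neutrophil list genes drawn lie to the right of them.

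The 4 members were close to each other in their profile over the 4 libraries of day 7. Likeness was measured as the root mean square difference of log2(normalized count + 1), centred on the mean of each gene, from the mean profile of the members. It was 0.11 for Hba-a1, 0.20 for Hba-a2, 0.12 for Hbb-bs and 0.10 for Alas2, against a median of 0.58 for the 122 other genes whose mean reached 10 normalized counts. Each member is part of that mean profile and the other genes are not, which lowers the members' distances by construction. Some of the other genes were nonetheless as near as the members themselves. The 5 nearest were Ms4a4a (0.09), Tarm1 (0.15), Gm5483 (0.16), Bst1 (0.17) and Hmox1 (0.18). Ms4a4a, which encodes a membrane protein of the MS4A family, was at 283 and 301 normalized counts in Efhd2f/f Vil1cre/+ libraries 65 and 71 and at 41.3 and 89.6 in Efhd2f/f libraries 67 and 68. Tarm1, which encodes an activating receptor of myeloid cells, was at 314 and 337 against 31.8 and 81.8. Bst1, which encodes the surface enzyme CD157, was at 358 and 451 against 59.4 and 117. With 4 libraries that also served to select the list, this likeness is a description over few points.

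**Figure D4:**
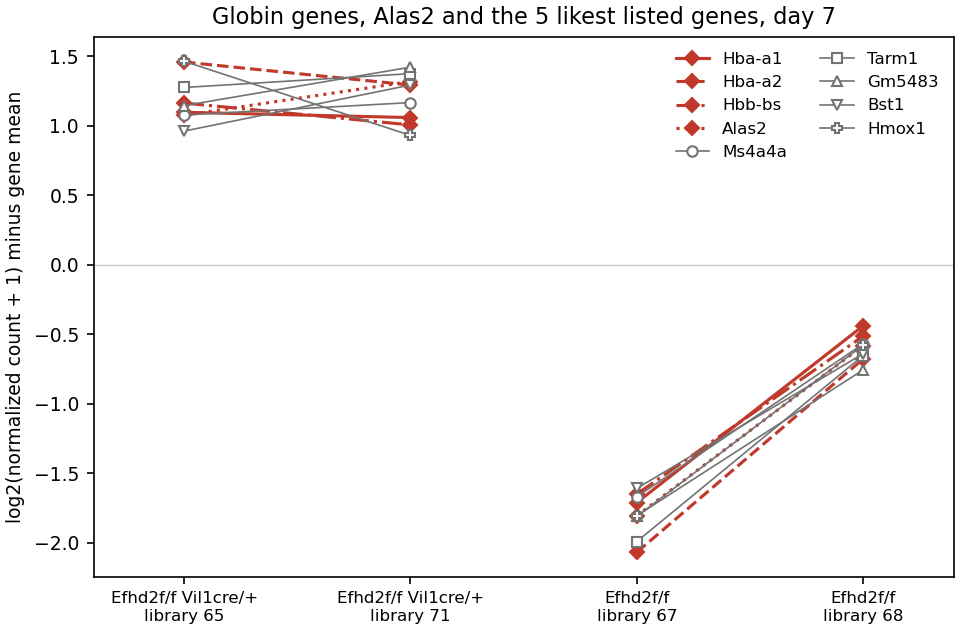
Log2(normalized count + 1) minus the mean of each gene over the 4 libraries of day 7, for the globin genes and Alas2 (red diamonds) and the 5 listed genes with the nearest profile (grey open symbols), with lines joining the libraries of a genotype. All 9 genes are high in libraries 65 and 71, lowest in library 67 and intermediate in library 68.

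On day 0, without DSS, Alas2 was the member that was listed. It was at 44.6 and 68.8 normalized counts in Efhd2f/f Vil1cre/+ libraries 51 and 53 and at 25.5 and 14.3 in Efhd2f/f libraries 50 and 52. The genotypes did not overlap, but the gap between the lower Efhd2f/f Vil1cre/+ value and the higher Efhd2f/f value was smaller than the gap between the Efhd2f/f Vil1cre/+ libraries. The means were 56.7 ± 17.1 and 19.9 ± 7.95 (SD, n = 2 each), a 2.85-fold difference and a log2 fold change of 1.49 ± 0.50 (SE), which was 0.90 under equal sums over the listed genes. Both Efhd2f/f Vil1cre/+ libraries lay above both Efhd2f/f libraries for 32.0% of the 309 genes listed on day 0, and below both for 207 of them. The values of day 0 and day 7 were scaled separately and were not compared. Hba-a1, Hba-a2 and Hbb-bs have no values on day 0 here, so it was not seen whether globin messages moved with Alas2 without DSS.

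The day 0 list held few other genes of blood or iron. Mt1, which encodes a metal-binding metallothionein, was the 1 gene of the iron and heme list, at 6128 and 7681 normalized counts against 1167 and 1322, a log2 fold change of 2.46 ± 0.19 (SE). Itga2b, which encodes the alpha subunit of the platelet fibrinogen receptor, was the 1 platelet marker listed, and it was lower, at 60.8 and 54.7 against 181 and 158. Pecam1, which encodes an adhesion protein of endothelium, was the 1 endothelial marker, at 48.7 and 47.3 against 140 and 80.7. Itga2b and Pecam1 were the only ones listed of 16 platelet and 11 endothelial markers, and 210 of the 309 genes listed on day 0 were lower. The part of blood or vessel content in the Alas2 values was not tested. The epithelial markers listed on day 0, Aqp8 (log2 fold change -1.15) and Chga (-1.17), were lower as well.

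The 5 genes of day 0 with the nearest profile to Alas2 were Angptl4 (0.05), Rian (0.19), Spry4 (0.23), Meg3 (0.26) and Nol3 (0.31), among 295 other genes whose mean reached 10 normalized counts. Angptl4, which encodes a secreted inhibitor of lipoprotein lipase, was at 89.2 and 130 normalized counts against 47.1 and 28.4. Rian and Meg3, maternally expressed noncoding RNAs of 1 imprinted domain, had log2 fold changes of 1.75 and 1.61. None of these 5 genes was on an erythroid list.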

How the data were processed

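RNA of colonic IECs was sequenced from 8 samples, grouped by genotype and day from the sample titles. Per the labels, the submitters' processing notes name CASAVA 1.8, fastp, HISAT2 2.0.5, featureCounts 1.5.0-p3 and DESeq2 1.20.0 with GRCm38 (mm10). The deposited signal is a normalized count per gene and library, scaled by the authors for each day separately with a method not given in the sources used here. The tables list only genes past the authors' thresholds and also hold their fold changes and p-values, which were not used. Columns carry library numbers that no label gives, so each stands for its group without a replicate number. The deposited gene length, in bases, was used for levels per kilobase. Values under 1e-06 were set to 0 (25 on day 0 and 14 on day 7). Values below 40 were compared with whole multiples of the best step of each library (0.859 to 1.11). All came within 0.1 steps of a multiple in 3 of 8 libraries and 52.6% to 96.7% in the other 5, so no single factor per library explains the values, and whole reads were not taken from them.

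Log2(normalized count + 1) was computed with Python 3.11.15, pandas 2.3.3 and numpy 2.4.6, and plotted with matplotlib 3.10.9. SE is that of the difference of 2 means of 2 libraries. The steps were tested on simulated data. Named genes are the 4 members, every listed gene of the erythroid, iron and platelet lists, at most 5 listed genes of each other cell type list by fold change, and the 5 listed genes nearest in profile to the members on each day. Genes named as not listed, and summed neutrophil levels, go beyond this rule. The members and lists were chosen with earlier results of these data known. Alternatives were each library left out in turn, pseudocounts of 0.1 and 10, a minimum mean of 50, a length scale, and a rescaling of the libraries to equal sums. Sequences are from RefSeq and GENCODE mouse release 21, whose coordinates for the 4 members equal those in the tables. Proteins were not used here.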

Additional observations from a re-analysis of the deposited data

How the results depend on the processing

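When single libraries were dropped, the log2 fold change stayed above 1 for every member, from 1.52 to 2.79 for Hba-a1, 2.05 to 3.44 for Hba-a2, 1.60 to 2.74 for Hbb-bs, 1.78 to 3.0 for Alas2 on day 7 and 1.09 to 1.89 for Alas2 on day 0. Pseudocounts of 0.1 and 10 moved each of them by less than the spread between replicates. Equal sums over the listed genes gave -0.27 for Hba-a1, 0.35 for Hba-a2, -0.25 for Hbb-bs and -0.0082 for Alas2 on day 7, and 0.90 for Alas2 on day 0. By its construction this scaling removes the common rise of a list in which 117 of 128 genes were higher. It left 33 genes above and 35 below without overlap on day 7, where 116 and 11 were counted. On day 0 a mean of at least 50 left 128 of the 207 lower genes, since fewer genes were counted. Per kilobase, the median ratio of Hba-a1 to Hbb-bs was 3.61 in place of 3.82 and that of the globins to Alas2 was 47.4 in place of 15.6. With the motif letters chosen after seeing the sequences, 4 members rather than 2 held a GATA motif, 3 rather than 1 a CACC box and 3 rather than 1 a TATA box. For the CACC and TATA boxes these were not the same members. Hbb-bs held CCACACCC but no CCACCC, and Alas2 held TATAAA, on the opposite strand, but no CATATAA. With a pseudocount of 10, 3 of the 5 nearest genes of day 7 were the same. No paired analysis was possible because the columns carry no replicate number of the labels and no test was made. The total depth is unknown, and with 2 libraries a group each SD and SE rests on a single difference.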
